A study of Mus musculus with 3 samples.

Results

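The MHC class II genes are described here in the skin of C3H/HeN mice with and without alopecia areata (AA), as 7 genes of the 32285 in the count tables: the chains H2-Aa, H2-Ab1 and H2-Eb1, the invariant chain Cd74, the transactivator Ciita, and the peptide editor subunits H2-DMa and H2-DMb1. Their unique molecular identifiers (UMIs, 1 per captured RNA molecule) were counted in cells that passed a filter of at most 10% mitochondrial UMIs and at least 200 genes. Myeloid cells were taken as cells with a UMI of 2 or more of Cd68, Lyz2, Csf1r, Adgre1, Cd209a and C1qa. Keratinocytes were taken as cells with no UMI of Ptprc, the leukocyte gene for CD45, and at least 10 UMIs of Krt5 and Krt14 together. By these rules 241 of the 26847 cells were myeloid and 20569 were keratinocytes. None of the 7 genes was used to choose either cell type.

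Dorsal skin came from female C3H/HeN mice at 25 weeks, and each of the 3 groups was 1 droplet-based library that pooled the skin of 7 to 8 mice. The Neg group was the negative control, named as a vehicle control in 1 label and as unaffected mice in the design text. The AA group was the disease model, which was made by transferring skin-draining lymph node cells, expanded in culture, from affected mice into C3H/HeN recipients. The AA+Ab group was the same model given a neutralizing antibody to CXCL12, a chemokine, and its dose and timing are not given in the sources used here. With 1 library per group no difference between groups was tested. The intervals below are exact 95% intervals that cover counting error only, not the spread between mice, cells or libraries.

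MHC class II molecules show peptides to CD4+ T cells. An alpha and a beta chain pair in the endoplasmic reticulum on the invariant chain CD74, which fills the groove until endosomal proteases trim it, and H2-DM then exchanges the remaining fragment for other peptides. Dendritic cells, macrophages, Langerhans cells and B cells make class II constitutively. Keratinocytes and most other skin cells make it only when interferon gamma induces CIITA, the coactivator on which the class II, Cd74 and H2-DM promoters depend. The proximal promoters of these genes carry an X box, bound by the RFX factors, and a Y box, an inverted CCAAT sequence bound by NF-Y, and CIITA docks on this assembly.

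In the GENCODE annotation of GRCm38 (mm10), 5 of the 7 genes lie in the MHC on chromosome 17. H2-Aa spans 34282744 to 34287823 on the minus strand. On the plus strand, H2-Ab1 spans 34257689 to 34269419, H2-Eb1 34305867 to 34316674, H2-DMa 34119541 to 34139101 and H2-DMb1 34153072 to 34160230. The chains of the C3H haplotype differ from the reference in sequence, which can alter how many reads of each chain align, alike in the 3 libraries. H2-DMb1 and its neighbor H2-DMb2 are near-identical, so their counts are uncertain. The 250 bases before the start of H2-Aa and of H2-Eb1 (RefSeq, GRCm38.p6) are printed because these 2 chains, whose AA over Neg ratios in keratinocytes were alike, both hold the same pair of short motifs there. H2-Aa lies at chr17:34287824-34288073 on the minus strand and H2-Eb1 at chr17:34305617-34305866 on the plus strand. Capitals mark a match to the X-box-like letters CTNGNAAC and a match to the Y-box letters TGATTGG.
H2-Aa: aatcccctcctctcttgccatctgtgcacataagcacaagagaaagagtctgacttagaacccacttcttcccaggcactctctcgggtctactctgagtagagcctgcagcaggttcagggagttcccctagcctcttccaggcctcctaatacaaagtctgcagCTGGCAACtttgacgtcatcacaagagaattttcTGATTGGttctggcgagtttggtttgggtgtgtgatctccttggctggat
H2-Eb1: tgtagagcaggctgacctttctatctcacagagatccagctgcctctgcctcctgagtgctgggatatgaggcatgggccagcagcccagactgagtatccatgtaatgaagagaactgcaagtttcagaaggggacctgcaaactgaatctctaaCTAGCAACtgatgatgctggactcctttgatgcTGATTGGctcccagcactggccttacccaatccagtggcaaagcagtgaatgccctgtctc
The H2-Aa window held CTGGCAAC 84 bases and TGATTGG 50 bases before the start, 34 bases apart. The H2-Eb1 window held CTAGCAAC 94 bases and TGATTGG 61 bases before the start, 33 bases apart. A window of H2-DMb1, whose AA over Neg ratio in keratinocytes was only 1.26, held CTAGTAAC and TGATTGG at 34 bases. Neither was held by 2 windows of H2-DMa, whose ratio was 1.24. H2-Ab1 and Ciita were not matched in the promoter table. Cd74 was left out of the search of the members' windows, so nothing is said of its letters. Of 32851 windows of the same length from 27025 genes, searched on both strands, 10.9% held CTNGNAAC, 7.23% held TGATTGG, and 30 windows (0.0913%) held them in this order within 60 bases. The match describes the letters only.

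The other members lie outside the MHC, Cd74 on chromosome 18 from 60803848 to 60812652 and Ciita on chromosome 16 from 10480059 to 10528418, both on the plus strand.

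The libraries held 6965 (Neg), 10879 (AA) and 10507 (AA+Ab) barcodes with 121289374, 137290217 and 141998364 UMIs, and 6582, 10433 and 9832 cells passed the filter. Pairs of libraries shared 14 to 23 barcodes, none of them of a myeloid cell. Keratinocytes numbered 5084, 8176 and 7309 with median depths of 14326, 11732 and 11923 UMIs, and myeloid cells 50, 104 and 87 with 7736, 5998 and 4480 UMIs, so Neg was deeper in both. Krt5 and Krt14 were detected in 99.2 to 99.9% of the keratinocytes, which their use in the rule brings about. Among the keratinocyte genes checked that the rule did not use, detection was lowest for Itgb4 (71.5 to 77.8%) and highest for Perp (99.4 to 99.6%). Of the myeloid cells, 83.9 to 90% had a UMI of Ptprc and 78.2 to 88% of Tyrobp, while Ms4a1, a B cell gene, was at 0 in all 3 libraries. Most myeloid cells also carried a Krt14 UMI (77.0 to 84.6%), and 3, 2 and 6 cells met both rules.

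In keratinocytes, the class II chains, Cd74 and Ciita were higher in AA than in Neg, and the H2-DM subunits were little higher. H2-Aa, the alpha chain of I-A, stood at 6.06 counts per 1000000 UMIs (CPM) in Neg, 17.7 CPM in AA and 7.45 CPM in AA+Ab. H2-Ab1, its beta chain, stood at 2.82, 12.9 and 4.17 CPM. H2-Eb1, the beta chain of I-E, stood at 4.75, 13.7 and 5.47 CPM. For each of these chains AA was highest and the other two libraries were close together. The AA over Neg ratio was 2.92 (2.66 to 3.20) for H2-Aa, 4.57 (4.03 to 5.21) for H2-Ab1 and 2.90 (2.61 to 3.21) for H2-Eb1.

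Cd74, the invariant chain, had the highest level of the 7 genes in keratinocytes, with 13.3 CPM in Neg, 63.9 CPM in AA and 17.0 CPM in AA+Ab. Its AA over Neg ratio was 4.81 (4.54 to 5.10), and its part of all member UMIs was 33.0% in Neg, 51.0% in AA and 35.1% in AA+Ab. Ciita was counted in 9, 66 and 17 UMIs, or 0.0892, 0.572 and 0.152 CPM, and its AA over Neg ratio was 6.42 (3.18 to 14.6). Its promoter isoforms cannot be told apart in 3′ counts.

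H2-DMa and H2-DMb1, the subunits of the peptide editor, differed less. H2-DMa stood at 6.48, 8.01 and 7.10 CPM in Neg, AA and AA+Ab, and H2-DMb1 at 6.77, 8.53 and 7.17 CPM. The AA over Neg ratios were 1.24 (1.12 to 1.37) and 1.26 (1.14 to 1.39), whose intervals lie below those of the other 5 genes. In Neg the H2-DM levels were above those of all 3 chains, whereas in AA they were below them.

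Of the 7 genes, 5 were at least 2 times higher in AA than in Neg, beside 2.13% of 18336 genes with at least 20 UMIs in the 2 libraries, and 0 of 7 were at least 2 times lower, beside 4.75%. Their median log2 ratio was 1.54, against -0.089 over all genes tested. Ciita ranked 47th from the highest, Cd74 75th and H2-Ab1 82nd. Summed over the 7 genes, the level was 40.3 CPM in Neg (39.0 to 41.5), 125 CPM in AA (123 to 127) and 48.5 CPM in AA+Ab (47.3 to 49.9). The log2 ratio of AA over Neg was 1.64 (1.59 to 1.69).

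**Figure D1:**
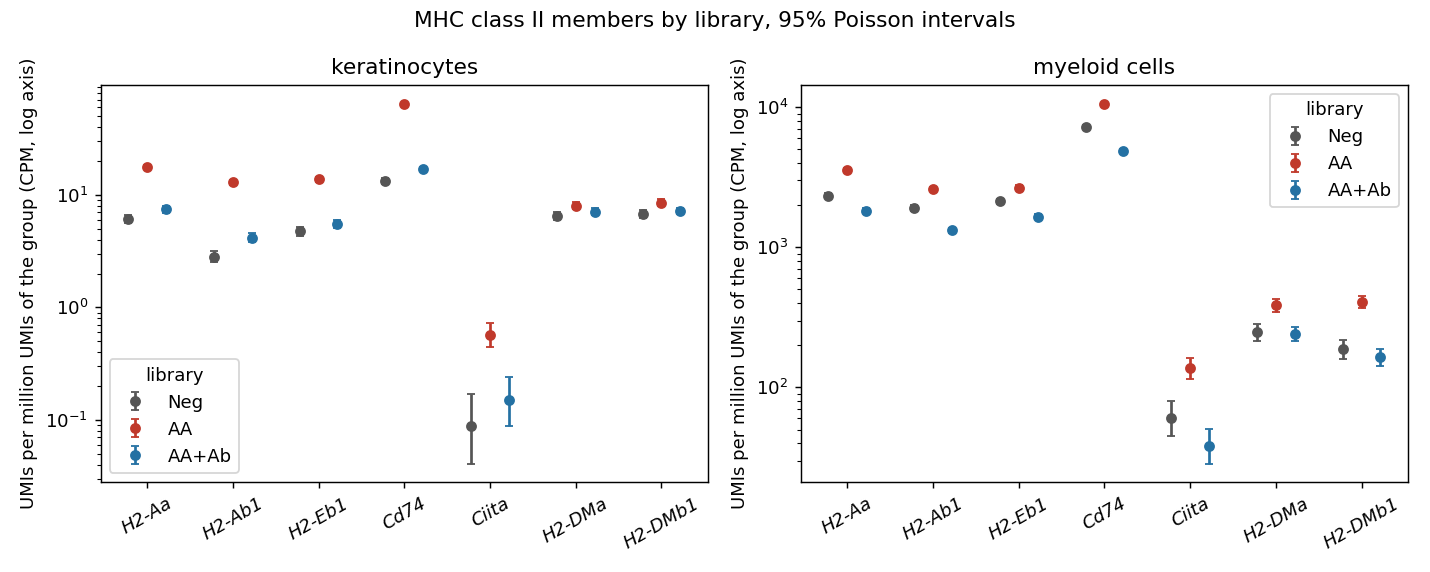
Level of each of the 7 genes in CPM on a log axis, by library, in keratinocytes and in myeloid cells; points are libraries and bars are exact 95% Poisson intervals. In keratinocytes the 5 genes other than H2-DMa and H2-DMb1 sit clearly higher in AA, for example Cd74 at 63.9 against 13.3 CPM in Neg.

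In AA+Ab, keratinocyte levels were close to those of Neg. The sum in AA+Ab was lower than in AA by a log2 ratio of -1.37 (-1.41 to -1.32), and 5 of 7 genes were at least 2 times lower, beside 4.15% of 18182 genes. The ratios of AA+Ab over AA were 0.422 for H2-Aa, 0.323 for H2-Ab1, 0.398 for H2-Eb1, 0.267 for Cd74 and 0.265 (0.146 to 0.457) for Ciita, but 0.886 for H2-DMa and 0.840 for H2-DMb1. Between AA+Ab and Neg the sum differed by a log2 ratio of 0.27 (0.21 to 0.33), and 0 of 7 genes were at least 2 times higher, beside 1.17% of 18256 genes. For Ciita, H2-DMa and H2-DMb1 the interval of that ratio included 1. With cells called as doublets removed, the log2 ratio of AA+Ab over Neg was -0.017 for the sum. The comparisons with AA share that library, and both comparisons with Neg share it.

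**Figure D2:**
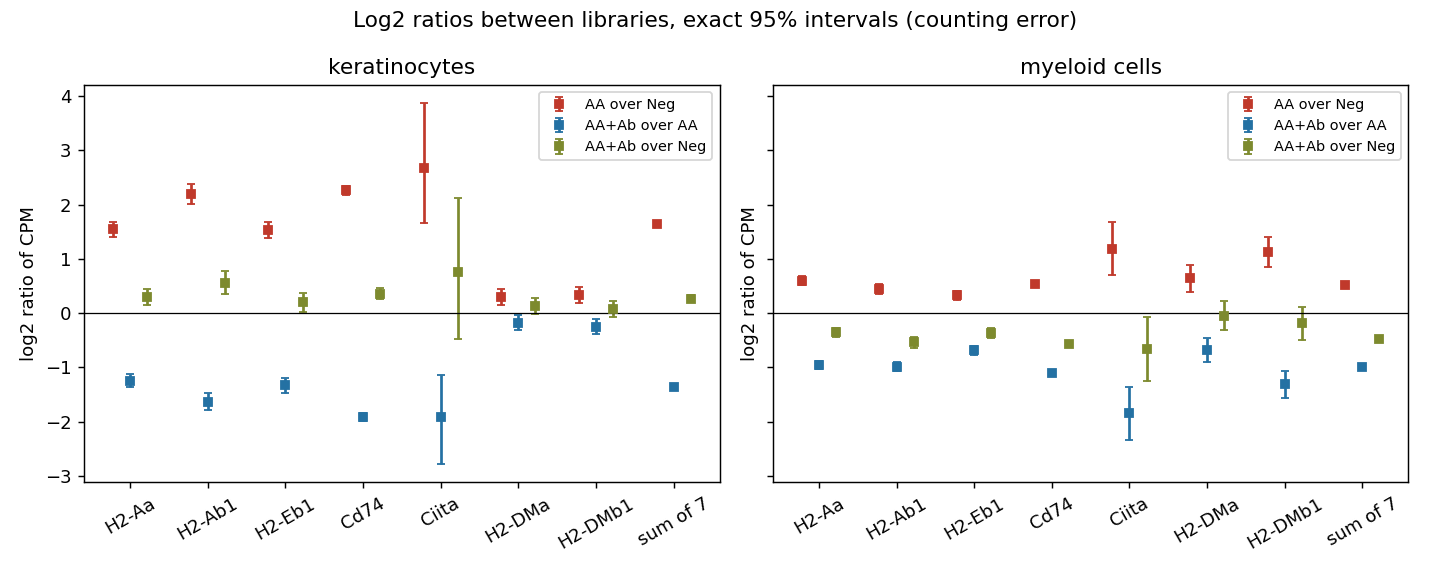
Log2 ratio of each gene's CPM for the 3 pairs of libraries, in keratinocytes and in myeloid cells, with exact 95% intervals and a line at 0. The keratinocyte ratios of AA over Neg run from 0.31 for H2-DMa to 2.68 for Ciita.

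Free RNA in droplets gives UMIs in cells that do not express a gene, so shares of cells are set beside cells that should lack class II. H2-Aa was detected in 6.96% of keratinocytes in Neg, 10.1% in AA and 6.32% in AA+Ab, and Cd74 in 12.3%, 16.8% and 10.6%. Among fibroblasts (50, 139 and 62 cells, median depths 8972.5, 5711 and 9033 UMIs) Cd74 was detected in 4%, 2.88% and 9.68%. With each cell thinned to 1000 UMIs, any of the 7 genes was detected in 3.61% (3.11 to 4.16) of Neg keratinocytes, 7.58% (7.01 to 8.17) in AA and 3.85% (3.42 to 4.31) in AA+Ab. The same share was 2%, 2.90% (0.795 to 7.26) and 3.28% in fibroblasts and 4.20%, 4.43% (2.65 to 6.92) and 3.04% in T cells. By this share the Neg and AA+Ab keratinocytes lay within the intervals of the fibroblasts and T cells of their own libraries. The AA share lay above the upper bounds of both, although its own interval overlapped that of the AA fibroblasts.

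The AA keratinocytes did not share the UMIs evenly. A count of 0 member UMIs was found in 64.4% of keratinocytes in Neg, 62.5% in AA and 68.5% in AA+Ab. At least 20 member UMIs, a limit chosen after values were seen, were found in 5 Neg cells (0.0983%, 0.0319 to 0.229), 169 AA cells (2.07%, 1.77 to 2.40) and 19 AA+Ab cells (0.260%, 0.157 to 0.406). In AA these 169 cells held 56.1% of the member UMIs of all keratinocytes. Just below the limit, 6, 43 and 12 cells had 15 to 19 UMIs, and just above it 3, 30 and 8 cells had 20 to 24. Cd74 was present in all 169 of the AA cells, H2-Aa in 168 and Ciita in 25. Their median depth was 12827 UMIs against 11706 in the other AA keratinocytes, while the 5 Neg cells had 56931 against 14324. Of the 169 cells 30 were called as doublets, as were 1 of 5 in Neg and 5 of 19 in AA+Ab. Over all keratinocytes, 321 of 5084 in Neg, 839 of 8176 in AA and 748 of 7309 in AA+Ab were so called.

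Class II RNA in a keratinocyte droplet can come with an immune cell or its RNA. UMIs of 7 immune marker genes (Lyz2, Csf1r, Adgre1, Cd209a, C1qa, Cd207 and Tyrobp) summed to 4.36 CPM in Neg keratinocytes (3.96 to 4.79), 2.80 CPM in AA (2.50 to 3.12) and 3.35 CPM in AA+Ab (3.02 to 3.71), and none of the 7 was at 0. Their sum was thus lowest in AA, but the genes differed. Of the 7, only Cd207 and Tyrobp were lowest in AA. Cd209a was highest there, at 0.139 CPM against 0.0496 in Neg and 0.0535 in AA+Ab. Member UMIs per immune marker UMI were 9.23, 44.7 and 14.5 in keratinocytes, against 5.02, 3.59 and 4.84 in myeloid cells. Of the cells with 20 or more member UMIs, 4 of 5 in Neg, 7 of 169 in AA and 6 of 19 in AA+Ab had a UMI of such a marker. Among keratinocytes with no such UMI, 1 of 4877 in Neg, 162 of 7873 in AA and 13 of 7082 in AA+Ab had 20 or more. Over these cells the sum was 30.0, 124 and 38.4 CPM, a log2 ratio of AA over Neg of 2.04 (1.99 to 2.10). The cell richest in member UMIs held 676 of 4061 in Neg, and 355 and 528 in the other two libraries. Without these 3 cells the sums were 33.6, 122 and 43.9 CPM. The rules did not exclude each other, since a cell with no Ptprc UMI could still hold myeloid markers. The cells that met both the keratinocyte and the myeloid rule numbered 3 in Neg, 2 in AA and 6 in AA+Ab, with 833, 1 and 821 of the keratinocytes' member UMIs, and the richest Neg and AA+Ab cells were among them.

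Detection of the genes overlapped within cells. Of the AA keratinocytes with an H2-Aa UMI, 37.0% had H2-Ab1, 37.3% H2-Eb1 and 56.8% Cd74, against 4.73%, 4.73% and 12.3% of those without. In Neg, H2-Ab1 was found in 13.6% of H2-Aa-positive keratinocytes against 2.54% of the rest, and in AA+Ab in 19.3% against 2.31%. Keratinocytes with a Ciita UMI numbered 9, 60 and 16. In AA the other 6 genes stood at 1825 CPM in them (1744 to 1908) and at 109 CPM in keratinocytes without a Ciita UMI, and the median such cell had 12 UMIs of the other genes. In Neg the median was 0, and 675 of the 680 UMIs lay in 1 cell. In AA+Ab 527 of 862 UMIs lay in 1 cell and the median was 2.5.

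Within AA keratinocytes, class II levels were higher in cells with more UMIs of interferon gamma response genes. A list of 12 such genes (among them Irf1, the GTPases Gbp2 and Iigp1, the immunoproteasome subunits Psmb8 and Psmb9, Tap1, and the chemokines Cxcl9 and Cxcl10) was summed per cell and scaled to 10000 UMIs, with limits at 5, 10 and 20 set after values were seen. From the lowest to the highest of these 4 ranges the member sum in AA was 35.5, 65.2, 237 and 1417 CPM. The 396 AA cells of the highest range were 4.84% of the keratinocytes and held 49.5% of their member UMIs. In AA+Ab the sums were 43.8, 44.1, 75.8 and 378 CPM, with 69 cells (0.944%) in the highest range. Neg had 40.7, 38.9, 36.2 and 83.2 CPM, with 12 cells and 12 member UMIs in the last range (43.0 to 145). In the lowest range the 3 libraries lay between 35.5 and 43.8 CPM. All 5 Neg cells with 20 or more member UMIs lay there, and the richest held 676 of the 3176 member UMIs. That cell also met the myeloid rule, so AA and Neg are not ranked in this range. In AA, H2-DMb1 followed the same order, at 5.90, 8.12, 11.8 and 38.0 CPM. H2-DMa was lower in the second range than in the lowest and higher after it, at 6.05, 5.65, 11.8 and 39.8 CPM. Both measures come from the same cells, and median depth ranged from 11043 to 12348 UMIs over the 4 ranges in AA.

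**Figure D3:**
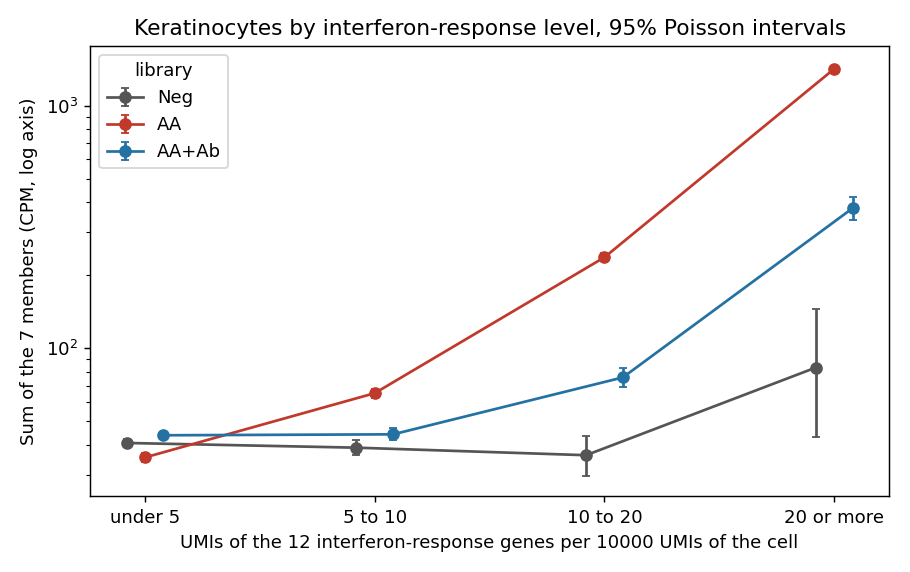
Sum of the 7 genes in keratinocytes (CPM, log axis) by range of interferon response UMIs per 10000 UMIs, for each library, with exact 95% Poisson intervals. AA climbs from 35.5 to 1417 CPM over the 4 ranges, and AA+Ab and Neg stay below 80 CPM in the first 3.

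AA cells with 20 or more member UMIs were found in 4 of 5 keratinocyte subsets. Keratinocytes were divided by Krt1 and Krt10 (suprabasal), Krt79 (upper follicle), hair shaft and inner root sheath keratins, Krt15 with a UMI of Cd34, Postn, Lgr5 or Barx2 (bulge or outer root sheath), and the rest (basal and other). Of the 169 AA cells with 20 or more UMIs, 113 were bulge or outer root sheath, 33 basal and other, 13 upper follicle, 10 suprabasal and none shaft or inner root sheath, where 0 of 32 cells gave an exact 95% upper limit of 10.9%. The bulge or outer root sheath cells were 66.9% of these cells and 62.6% of all AA keratinocytes. That rule asked for at least 5 Krt15 UMIs per 10000 and a single UMI of another marker. Krt15 was detected in 94.9 to 96.7% of all keratinocytes, so the subset is broad and its name is loose.

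By level, the upper follicle cells had the highest sum in AA, at 282 CPM against 52.8 in Neg and 73.8 in AA+Ab. Without 1 AA cell that held 26.1% of the UMIs, the AA value was 212 CPM. Bulge or outer root sheath cells stood at 34.3, 139 and 49.8 CPM in Neg, AA and AA+Ab, and basal and other cells at 23.1, 86.7 and 25.6 CPM. In suprabasal cells the 3 libraries were close together at 110, 108 and 103 CPM, but 1 Neg cell held 52.2% of the UMIs there and 1 AA+Ab cell 48.1%. Among suprabasal cells without an immune marker UMI the values were 44.2, 107 and 47.2 CPM. Shaft and inner root sheath cells were lowest, at 8.68, 16.7 and 5.03 CPM from 18, 16 and 3 UMIs. The summed interferon list was also highest in AA upper follicle cells at 913 CPM, against 776 CPM in bulge or outer root sheath and 424 CPM in basal and other cells.

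**Figure D4:**
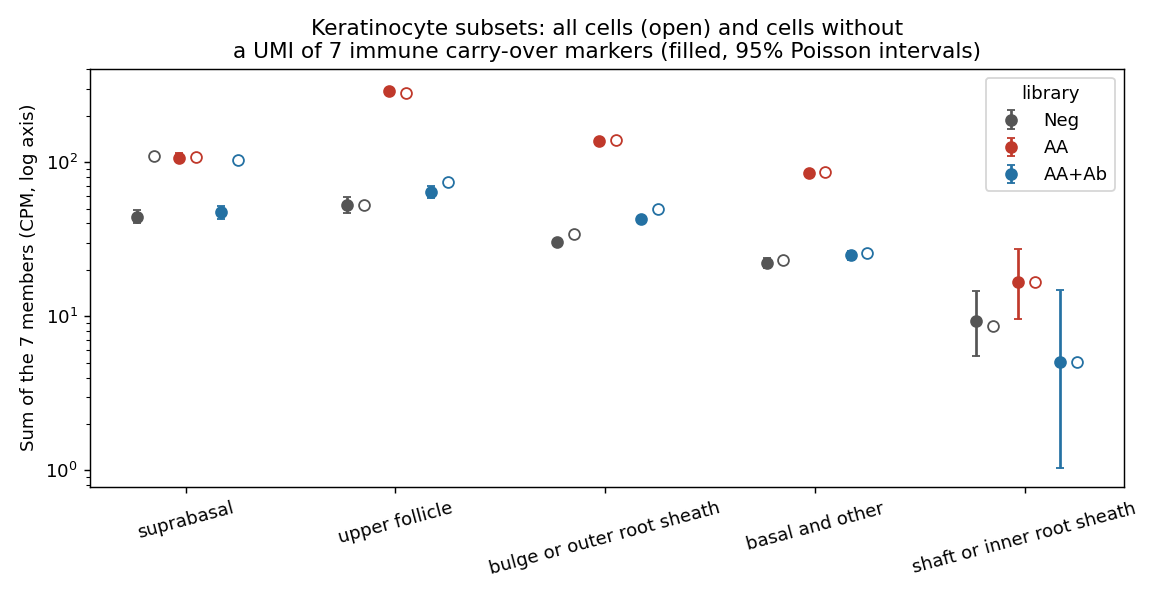
Sum of the 7 genes (CPM, log axis) in 5 keratinocyte subsets by library, over all cells (open points) and over cells without a UMI of 7 immune markers (filled points, with exact 95% Poisson intervals). AA is highest in each subset over the cells without such a UMI, with upper follicle cells at 289 CPM, and the suprabasal Neg and AA+Ab points drop from 110 and 103 CPM to 44.2 and 47.2 CPM.

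Other genes of the class II pathway were counted from lists. Among the regulators, Irf1, which acts on the interferon-responsive Ciita promoter, stood at 77.2 CPM in AA keratinocytes against 40.7 CPM in Neg, and at 74.0 CPM in AA+Ab. The subunits that bind the X and Y boxes differed little, with AA over Neg ratios of 1.01 for Rfx5, 0.820 for Rfxank, 1.01 for Rfxap, 1.21 for Nfya, 0.957 for Nfyb and 1.04 for Nfyc. Of 6 endosomal processing genes 0 passed the fold in AA over Neg, beside 2.13% of all genes tested higher and 4.75% lower. Ifi30, a thiol reductase, was lower in AA at 32.6 against 42.6 CPM. Of 7 genes of turnover and T cell contact, 2 were at least 2 times lower in AA, beside 4.75% of all genes tested. These were Cd86, a costimulatory ligand, with 101 UMIs in Neg and 13 in AA, and Cd4 with 14 and 6. The interval of the Cd4 log2 ratio, -3.08 to 0.055, included no difference. The summed immune markers were also higher in Neg keratinocytes (4.36 against 2.80 CPM), and their part in these counts was not tested. Of the 12 interferon genes 7 were at least 2 times higher in AA, beside 2.13% of all genes tested. Among them were the GTPase Iigp1, at 53.1 against 0.436 CPM, and Cxcl9, a chemokine for T cells, at 17.2 against 0.843 CPM. In AA+Ab over AA, 7 of the 12 interferon genes were at least 2 times lower, beside 4.15% of all genes tested.

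In myeloid cells the levels were far above those in keratinocytes. The sum was 14111 CPM in Neg (13856 to 14370), 20239 CPM in AA (19960 to 20522) and 10144 CPM in AA+Ab (9972 to 10319). H2-Aa stood at 2333, 3539 and 1828 CPM, H2-Ab1 at 1911, 2606 and 1319 CPM, and H2-Eb1 at 2125, 2665 and 1656 CPM. Cd74 was the highest of the genes, with 7247, 10499 and 4899 CPM. Ciita stood at 60.6, 138 and 38.3 CPM from 50, 136 and 50 UMIs. H2-DMa stood at 247, 386 and 240 CPM and H2-DMb1 at 187, 407 and 164 CPM. All 7 genes were highest in AA. Cd74 made up 48.3 to 51.9% of the member UMIs, close to its part in AA keratinocytes.

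By summed counts, AA exceeded Neg by a log2 ratio of 0.52 (0.49 to 0.55) in myeloid cells, and 2 of 7 genes, Ciita and H2-DMb1, were at least 2 times higher, beside 8.89% of 8904 genes. The median log2 ratio was 0.60 over the 7 genes and 0.0090 over all genes tested. AA+Ab was lower than AA by a log2 ratio of -0.996 (-1.03 to -0.96), with Cd74, Ciita and H2-DMb1 (3 of 7) at least 2 times lower, beside 10.9% of 9464 genes. AA+Ab was lower than Neg by -0.48 (-0.51 to -0.44), with 0 of 7 genes at least 2 times lower, beside 6.23% of 9235 genes.

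The difference of AA from Neg in myeloid cells turned with the cells counted. Deep cells that also carried keratin UMIs had a low class II level per UMI. Cells with Ptprc and under 10 Krt5 and Krt14 UMIs numbered 35, 77 and 57, with median depths of 5794, 5029 and 3628 UMIs, and their sum was 33810 CPM in Neg, 30674 CPM in AA and 25443 CPM in AA+Ab. Cells with Ptprc and 10 or more keratin UMIs numbered 10, 16 and 16, with median depths of 35457, 17650 and 36450 UMIs, and stood at 6464, 11562 and 6507 CPM. In the first of these sets the log2 ratio of AA over Neg was -0.14 (-0.18 to -0.10), and in the second AA was higher. The first set gave -0.27 for AA+Ab over AA and -0.41 for AA+Ab over Neg, so AA+Ab was the lowest library over all myeloid cells and over these. Of the 50, 104 and 87 cells 2, 10 and 13 were called as doublets. The part of keratinocyte RNA in these droplets was not tested.

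Counted per cell, the member level in myeloid cells ran from 0 to 126538 CPM in Neg with a median of 13373, from 0 to 87228 in AA with a median of 19788, and from 0 to 88177 in AA+Ab with a median of 7086. The mean over cells was 23972, 25363 and 15437 CPM. The 3 libraries overlapped over most of their range. Cells with more than 10000 CPM made up 56%, 75% and 40.2%, and 6, 7 and 19 cells had no member UMI. Thinned to 1000 UMIs, H2-Aa was detected in 60% of Neg (45.2 to 73.6), 79.2% of AA (70.0 to 86.6) and 47.7% of AA+Ab cells (36.8 to 58.7), and Ciita in 14%, 22.8% and 9.30%. Unthinned, H2-Aa was found in 78%, 84.6% and 64.4%.

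**Figure D5:**
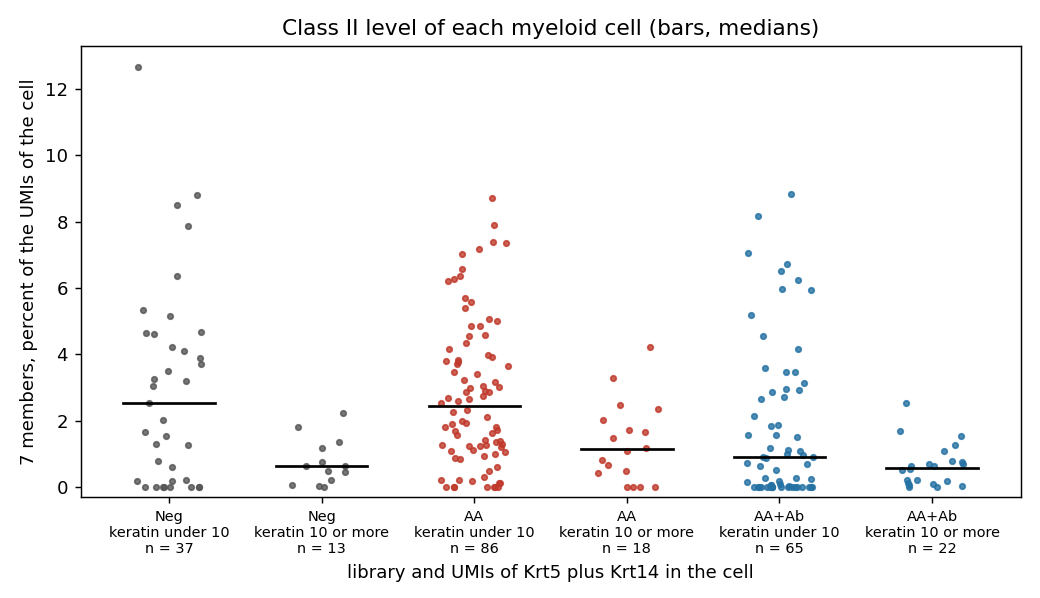
Sum of the 7 genes in each myeloid cell by library, in percent of the UMIs of the cell (1% is 10000 CPM), with cells of 10 or more Krt5 and Krt14 UMIs drawn apart from the rest; lines mark medians. Among cells under 10 keratin UMIs the medians are 25317 CPM in Neg, 24403 in AA and 8992 in AA+Ab, and cells with more keratin UMIs lie lower.

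The myeloid cells were a mixture, and the order of the libraries differed between its subsets. Cells with Cd209a, a lectin of dermal dendritic cells, numbered 21, 46 and 21 and stood at 14841 CPM in Neg, 24782 CPM in AA and 31769 CPM in AA+Ab. In them AA+Ab was the highest library by summed counts, although the median cell had 25317, 27064 and 21482 CPM. Cells with Adgre1 or C1qa, macrophage genes, and without Cd209a numbered 10, 24 and 16 and stood at 12324, 26161 and 2199 CPM. In Neg 1 of these cells held 72.8% of the UMIs, and without it the level was 4659 CPM. In these cells Krt14 stood at 303, 982 and 5428 CPM, so it was highest in AA+Ab, where class II was lowest, and S100a8 was detected in 2, 0 and 4 cells. Their part in the class II level was not tested. Cells with neither those genes nor Cd207 numbered 6, 23 and 31 and stood at 346, 15765 and 5817 CPM. They were 12% of the myeloid cells in Neg, 22.1% in AA and 35.6% in AA+Ab. Their Neg level rests on 17 member UMIs, 13 of them in 1 cell. Without the richest cell of each library the levels were 95.2, 13469 and 4015 CPM. Neutrophil and monocyte genes differed in their order among the libraries. S100a8 was detected in 10%, 3.85% and 21.8% of myeloid cells and S100a9 in 10%, 2.88% and 17.2%, so both were lowest in AA. Ly6c2 was detected in 10%, 17.3% and 13.8% and Ccr2 in 46%, 58.7% and 26.4%, so both were highest in AA.

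Langerhans cells, chosen by Cd207 and Ptprc, resident antigen-presenting cells of the epidermis, numbered 15, 15 and 23 and stood at 12718, 10448 and 13054 CPM. By these summed counts their AA level was 0.821 times that of Neg, and AA+Ab was 1.25 times AA. The median Langerhans cell had 40907 CPM in Neg, 11836 in AA and 16953 in AA+Ab, so by the median Neg was highest. The direction of AA+Ab over AA turned with the rule: myeloid cells with Cd207 numbered 13, 11 and 19 and stood at 15408, 14445 and 10487 CPM, with AA+Ab at 0.726 times AA (0.699 to 0.754) and AA at 0.937 times Neg. Myeloid cells without B cell markers or Cd207 (37, 93 and 68 cells) stood at 12722, 22663 and 9699 CPM, a log2 ratio of AA over Neg of 0.83 (0.79 to 0.88) and of AA+Ab over AA of -1.22 (-1.27 to -1.18). B cells, chosen by 2 or more B cell markers such as Cd79a and Ms4a1, were only 6, 5 and 18 cells at 4200, 2955 and 5568 CPM. Without the richest cell of each library they stood at 5829, 1840 and 5035 CPM, so AA+Ab over Neg turned from a ratio of 1.33 to 0.864. In B cells Cd74 made up 65.9 to 68.8% of the member UMIs, a larger part than in myeloid cells.

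The same pathway lists were counted in myeloid cells, where more genes of any kind passed the fold: 8.89% of all genes tested were at least 2 times higher in AA than in Neg, against 2.13% in keratinocytes. General myeloid genes were also higher in AA than in Neg, with Lyz2 at 3434 against 1156 CPM, Ptprc at 572 against 313 CPM and Laptm5 at 405 against 213 CPM, while Krt14 was lower, at 2349 against 3633 CPM. The part of this balance in the pathway counts was not tested. Among the regulators, Irf8, a factor of dendritic cell development, stood at 133 CPM in AA against 14.5 CPM in Neg, and Irf1 at 209 against 33.9 CPM. Of 6 endosomal processing genes 5 were at least 2 times higher, led by Ctss, the protease that makes the last cut in the invariant chain, at 910 against 247 CPM. Lgmn, an asparaginyl endopeptidase, stood at 214 against 77.6 CPM. Of the 12 interferon genes 11 passed the fold. Cd40, a receptor for T cell help, was the gene of turnover and T cell contact that passed it, at 40.5 against 10.9 CPM. In AA+Ab over AA, Irf1, Irf8, 4 of 6 processing genes and 8 of the 12 interferon genes were at least 2 times lower, beside 10.9% of all genes tested, among them Ctss at 224 CPM and Irf8 at 34.5 CPM. Of the other class II genes, H2-DMb2 stood at 49.7, 67.8 and 41.4 CPM in Neg, AA and AA+Ab. H2-Oa, a subunit of the H2-DM inhibitor H2-O, stood at 31.5, 32.4 and 16.9 CPM, and H2-Ob, the other subunit, at 13.3, 12.1 and 6.13 CPM.

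Set in order, the level of the 7 genes was highest in myeloid and Langerhans cells, next in B cells, and far lower elsewhere. T cells stood at 228, 111 and 64.9 CPM, but 1 Neg cell held 375 of 540 UMIs, and without it Neg was at 70.2 CPM. Fibroblasts, which make the dermal collagens, stood at 23.0 CPM in Neg (12.2 to 39.3), 26.3 CPM in AA (17.2 to 38.5) and 33.7 CPM in AA+Ab (21.6 to 50.1), so their intervals overlapped. Melanocytes stood at 25.6, 34.4 and 182 CPM. Without 1 AA+Ab cell of 528 UMIs, which also met the keratinocyte and myeloid rules, the last value was 49.95 CPM. Of the melanocytes, 178 of 254 in Neg, 27 of 71 in AA and 117 of 218 in AA+Ab also met the keratinocyte rule. The melanocyte and keratinocyte groups are thus not separate. Skeletal muscle cells stood at 22.5, 18.5 and 18.1 CPM with overlapping intervals. The Neg keratinocytes, at 40.3 CPM, lay just above the interval of the Neg fibroblasts. Without their richest cell they stood at 33.6 CPM (32.4 to 34.7), inside that interval. The intervals of AA keratinocytes and AA T cells overlapped. Endothelial cells were 6, 12 and 14 cells, and 119 of the 125 AA UMIs lay in 1 cell, so no level is read from them.

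Across 39 points (14 cell groups by library with at least 10 cells), the genes most like the 7 were named by the correlation of log2(CPM + 5) with the mean of the 7. Among 6993 genes the 10 highest were Spi1 (r = 0.94), Napsa (0.93), Cd86 (0.92), Ctss (0.91), Alox5ap (0.89), Cd83 (0.88), Plek (0.87), Tyrobp (0.84), Ccrl2 (0.83) and Mcl1 (0.80). Points of a library share its depth, melanocyte and keratinocyte points share cells, and the order mainly separates immune groups from the rest. Of the 7 genes themselves, r ran from 0.93 for Ciita to 0.99 for H2-Aa, H2-Ab1 and H2-Eb1. Each of the 7 is part of the mean, which raises its r, so these values are not comparable with those of other genes.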

How the data were processed

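Skin cells of 3 libraries, 1 per group, were sequenced as 10x 3′ v3.1 libraries. The submitters' processing notes name Cell Ranger 7.2.0, FastQC 0.11.7 and the mm10 build. The deposited tables give unnormalized UMI counts for each gene in each barcode, as the authors made them; the annotation release is not given in the sources used here.

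Counts were read in Python 3.11.15 with numpy 2.4.6 and scipy 1.17.1. The study's cell filter was kept (mitochondrial UMIs at most 10%, at least 200 genes detected). For each gene, library and cell type, the UMI total was scaled to all UMIs counted in those cells (CPM). Intervals at 95% were exact: Poisson for CPM, Clopper-Pearson for shares, conditional for ratios. They cover counting error only. A gene was counted as different at 2 times or more, among genes with at least 20 UMIs over the 2 libraries, with a library at 0 set to 3 UMIs. Shares were also taken with cells thinned to 1000 UMIs. Doublets, scored with scikit-learn 1.9.0 from 2 simulated doublets per cell in 20 principal components and called at 0.8% per 1000 barcodes, stayed in except in an alternative. The calculation was tested on simulated data.

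The 7 genes were always named, as were pathway genes past the fold or with a described role and the 10 genes most like the members. The members and all lists were chosen with earlier results of these data known. Limits of 20 member UMIs, the interferon ranges, the immune marker set, the richest cells and the keratin split were chosen after values were seen. Alternatives changed the filters, doublets, scaling and cell rules. Values of 1 gene of the regulator and interferon lists are not reported here.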

Additional observations from a re-analysis of the deposited data

Results flagged for a closer look

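In 9 results the log2 ratio pointed up in 1 cell group and down in another for the same pair of libraries. None of these differences was tested, because each group is 1 library.

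For AA+Ab over Neg, keratinocytes were higher and myeloid cells lower. The difference of the 2 log2 ratios was 0.75 for the sum of the 7 genes (0.27 against -0.48), 0.65 for H2-Aa (0.30 against -0.35), 1.10 for H2-Ab1 (0.56 against -0.54), 0.56 for H2-Eb1 (0.20 against -0.36) and 0.92 for Cd74 (0.36 against -0.56). With called doublets removed, the keratinocyte ratio of the sum was -0.017, so the signs no longer differed.

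Within immune cells, Langerhans cells and myeloid cells without B cell markers or Cd207 went opposite ways. For AA over Neg the difference was -1.12 (-0.28 against 0.83), and for AA+Ab over AA it was 1.55 (0.32 against -1.22). Myeloid cells with Cd207 had -0.46 (-0.52 to -0.41) for AA+Ab over AA, the sign of the other myeloid cells, so the opposite direction there rests on how Cd207 cells were chosen. Cells with Cd209a and cells with Adgre1 or C1qa but no Cd209a differed by 3.93 for AA+Ab over AA (0.36 against -3.57) and by 3.58 for AA+Ab over Neg (1.10 against -2.49). The subsets hold 10 to 46 cells per library. In Neg 1 cell held 72.8% of the member UMIs of the Adgre1 or C1qa cells, and without the richest cell of each library their log2 ratio of AA+Ab over Neg was -1.02. Krt14 stood at 303, 982 and 5428 CPM in the Adgre1 or C1qa cells of Neg, AA and AA+Ab; its part in the difference was not tested.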

How the results depend on the processing

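No paired analysis was possible because each group is 1 library. Values below are log2 ratios of the summed 7 genes, in the order AA over Neg, AA+Ab over AA, AA+Ab over Neg. In keratinocytes the values were 1.64, -1.37 and 0.27. They became 1.73 and 0.36 (first and last) with the median ratio of all genes subtracted; 1.72 and -1.48 (first and second) as means over cells; 1.998, -1.64 and 0.36 without cells with a myeloid marker or Cd207; 2.04, -1.69 and 0.36 over cells without an immune marker UMI; 1.87, -1.48 and 0.39 without the richest cell of each library; and 1.19 and -0.96 (first and second) without Cd74. The second was -1.32 without mitochondrial, ribosomal and hemoglobin genes and -1.48 at 50 keratin UMIs. Removing called doublets gave -1.61 for the second and turned the last to -0.017, with H2-Aa at -0.082, H2-Eb1 at -0.26 and Cd74 at -0.012; the cause was not tested.

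In myeloid cells the values were 0.52, -0.996 and -0.48. They became 0.61, -0.86 and -0.25 without called doublets; 0.081, -0.72 and -0.63 as means over cells; 0.35, -1.09 and -0.74 with 3 or more markers; 0.83, -1.22 and -0.39 without B cells and Langerhans cells; and 0.59, -0.90 and -0.31 without the richest cells. The first and second were 0.44 and -0.90 without mitochondrial, ribosomal and hemoglobin genes, and the second and the last -0.91 and -0.38 with the median subtracted and -0.89 and -0.39 without Cd74. Cells with Ptprc and under 10 keratin UMIs gave -0.14, -0.27 and -0.41. There AA over Neg turned for H2-Aa (-0.066), H2-Ab1 (-0.25), H2-Eb1 (-0.49), Cd74 (-0.075) and H2-DMa (-0.065), and as means over cells for H2-Ab1 (-0.019) and H2-Eb1 (-0.17). The cause was not tested.

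Of the values for single genes, 228 of 231 kept their direction in keratinocytes and 221 of 231 in myeloid cells. Depth limits Ciita in keratinocytes most, where Neg had 9 UMIs.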
